A study of Mus musculus with 6 samples.

Results

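The epithelial sodium channel and the hormone pathways that set its activity were described by 10 genes, taken by their symbols from count tables that list 24422 genes in all. All 10 were counted in each library and all 10 passed the filter on low counts. They are the channel subunits Scnn1a, Scnn1b and Scnn1g, the mineralocorticoid receptor Nr3c2, the enzyme Hsd11b2, the kinase Sgk1, the ubiquitin ligase Nedd4l, the vasopressin receptor Avpr2, the urea transporter Slc14a2 and the transcription factor Elf5. The libraries were poly-A RNA from whole mouse kidney at postnatal day 60 (P60), from mice labelled C57BL/6 and kept on food with 220 ppm iron. The 3 control mice were labelled wild type. The 3 knockout mice carried floxed transferrin receptor alleles with KspCre (Tfr1f/f;KspCre), so that exons 3 to 4 of Tfrc are removed where Cre is made. Ksp-cadherin regulatory sequence drives this Cre, which is active in cells of the distal tubules and collecting ducts and not throughout the kidney. No Cre or floxed allele is given for the controls. The design calls the 3 libraries of each group biological replicates, and each is called here by its group and number.

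The channel, known as ENaC, takes up sodium from the urine at the apical membrane of principal cells, in the connecting tubule and collecting duct. Aldosterone binds the mineralocorticoid receptor in these cells and raises the abundance and activity of the channel. Sgk1 phosphorylates Nedd4l and so keeps it from removing the channel from the membrane, and Hsd11b2 inactivates glucocorticoid that would otherwise occupy the receptor. Vasopressin binds Avpr2 on the basolateral side, raises cAMP, and so increases water, urea and sodium transport along the collecting duct. In whole kidney RNA, fewer cells of a type and less RNA per cell cannot be told apart.

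Total counts per library ran from 11501053 to 21001341. The first principal component of log2 CPM (each count per 1000000 counts of its library, scaled by TMM factors), which held 69.4% of the variance, placed the 3 controls between -72.6 and -53.2, knockout 1 at 9.67, knockout 3 at 82.1 and knockout 2 at 88.6. Control 2 had 52 Xist counts and 3980 counts from Y-linked genes, whereas every other library had at least 10458 Xist counts and at most 5 Y-linked counts. The targeted gene Tfrc was at 138, 168 and 62.0 CPM in controls 1 to 3 and at 214, 86.0 and 40.6 CPM in knockouts 1 to 3 (log2 fold change -0.11, adjusted p = 0.911), so its count, which covers the floxed exons and the rest of the gene in every kidney cell, did not separate the labels. Results are given for all 6 libraries, and again for some genes and lists without knockout 1 or control 2. Without control 2 edgeR called 0 genes, so no call made with all 6 libraries was kept there.

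No member passed an adjusted p of 0.05 in edgeR's quasi-likelihood test over the 15171 genes tested, where 17.2% of genes passed, 10.6% as higher and 6.64% as lower in knockouts. A single member, Elf5, had an unadjusted p under 0.05, where 38.6% of all genes tested had one. The fitted log2 fold change was negative for 8 of the 10 and positive for Scnn1b and Scnn1g, with a median of -0.40 over the members against 0.021 over all genes tested. In 2 members, Nedd4l and Elf5, each knockout lay below each control, a share like the 22.2% of all genes tested that did so. A DESeq2 Wald test called 1 member lower, Elf5, against 15.0% of all genes, and limma-voom called the same gene against 6.05%. Without knockout 1, edgeR called 4 members lower (Scnn1a, Avpr2, Slc14a2 and Elf5) against 16.4% of all genes, all 10 values were negative and the median was -0.58. Each other fit that left out 1 library called 0 members and 0 to 73 genes in all, with 1 member and 4270 to 4823 of all genes at an unadjusted p under 0.05.

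**Figure D1:**
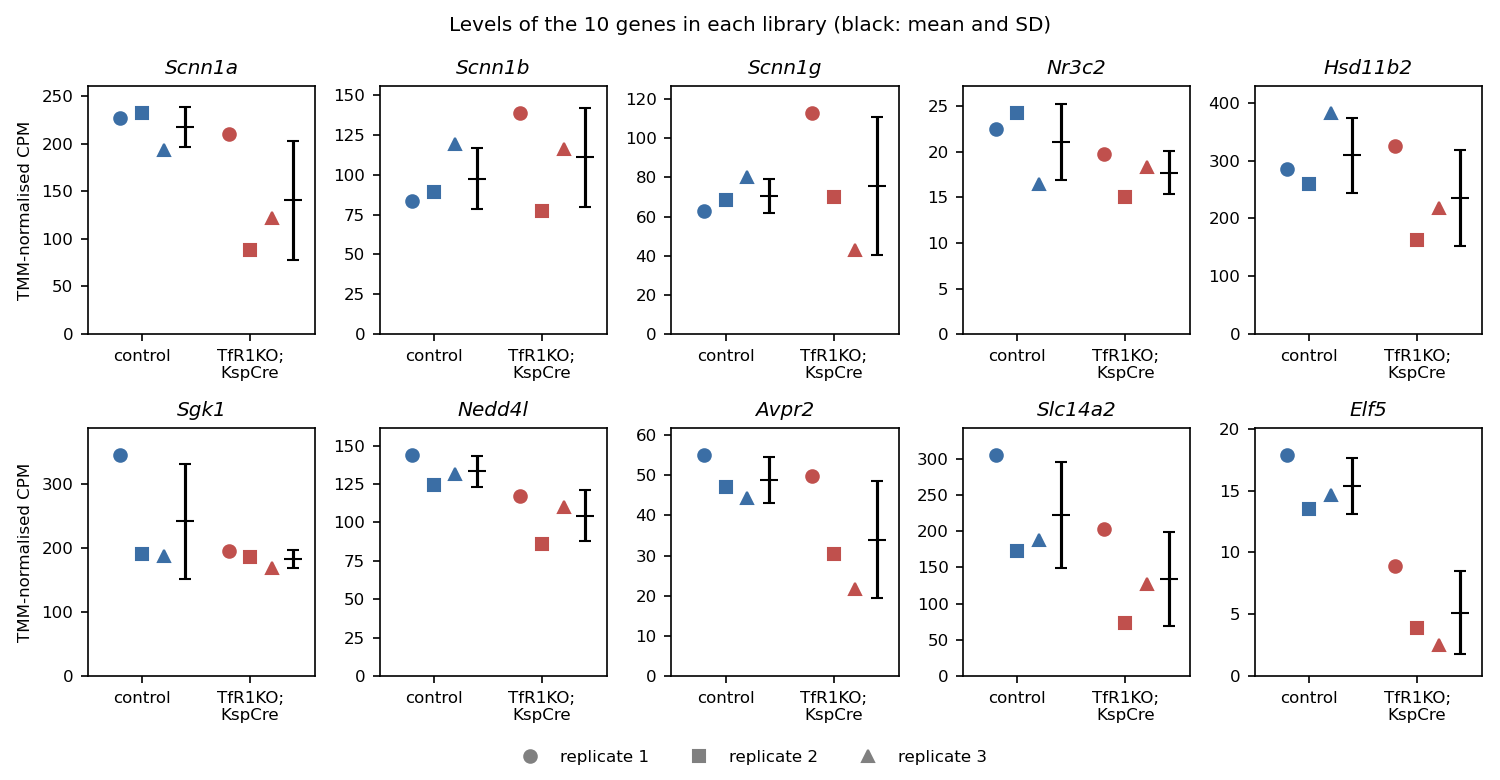
CPM of each of the 10 members in each library, each gene in its own panel with a linear axis from 0; marker shapes give the replicate number, and the black bars give the mean and SD of each group. Knockout 1 lies within or above the control range for Scnn1a, Scnn1b and Scnn1g, and the groups are separate only in the panels of Nedd4l and Elf5.

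Scnn1a (ENSMUSG00000030340, mm9 chr6:125271358-125294958, plus strand) encodes the alpha subunit, without which the channel carries almost no current. It was at 227, 233 and 194 CPM in controls 1 to 3 and at 210.4, 88.6 and 122 CPM in knockouts 1 to 3. Knockout 1 lay inside the control range, and knockouts 2 and 3 lay below every control. Control kidneys averaged 218 ± 21.1 CPM and knockout kidneys 140.3 ± 62.9 CPM (SD, n = 3 each). The fitted level was 64.5% of that in controls, a log2 fold change of -0.63 (SE 0.31, 95% interval -1.38 to 0.11, edgeR adjusted p = 0.182). Leaving out knockout 1 gave -1.06 with an edgeR adjusted p of 0.00996, so the call on the alpha subunit rests on whether that library is counted.

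Scnn1b (ENSMUSG00000030873, mm9 chr7:129008591-129062029, plus strand) and Scnn1g (ENSMUSG00000000216, mm9 chr7:128877993-128911989, plus strand) are neighbours on the chromosome and encode the beta and gamma subunits. Scnn1b was at 83.8, 89.5 and 119 CPM in the controls and at 139, 77.3 and 117 CPM in the knockouts. Scnn1g was at 63.0, 68.6 and 80.1 CPM in the controls and at 113, 70.0 and 43.1 CPM in the knockouts. For both genes knockout 1 was the highest of the 6 libraries and the groups overlapped. The lowest library was knockout 2 for Scnn1b and knockout 3 for Scnn1g. Scnn1b had a log2 fold change of 0.19 (SE 0.25, 95% interval -0.40 to 0.78, adjusted p = 0.611), and of -0.02 without knockout 1. For Scnn1g the value was 0.10 (SE 0.33, 95% interval -0.68 to 0.88, adjusted p = 0.849), and -0.33 without knockout 1. Both intervals held 0. The annotated Scnn1b locus overlaps Cog7 on the opposite strand, and the strand setting of the counting was not given in the sources used here, so its counts are uncertain to that extent.

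The ratio of subunits within a library does not depend on the scaling between libraries. The ratio of Scnn1a to Scnn1b CPM was 2.70, 2.60 and 1.62 in the 3 controls, against 1.51, 1.15 and 1.05 in the 3 knockouts. Every knockout was below every control, knockout 1 included. The log2 ratio was 1.17 ± 0.41 in controls and 0.29 ± 0.28 in knockouts (SD, n = 3 each), a difference of -0.88 with an exact two-sided permutation p of 0.1, which is the smallest p that 3 against 3 libraries allow. Over the 3 subunit pairs the Benjamini-Hochberg adjusted p was 0.3. The pairs had a further difference of -0.71 for Scnn1a to Scnn1g, with ratios of 3.60, 3.38 and 2.41 in controls and 1.86, 1.27 and 2.82 in knockouts (exact permutation p = 0.2, adjusted p = 0.3). Here knockout 3 lay inside the control range. Scnn1b to Scnn1g was at 1.33, 1.30 and 1.49 in controls and at 1.23, 1.10 and 2.70 in knockouts, where knockout 3 stood above the other libraries (difference 0.17, exact permutation p = 1). Without knockout 3 that difference was -0.24.

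**Figure D2:**
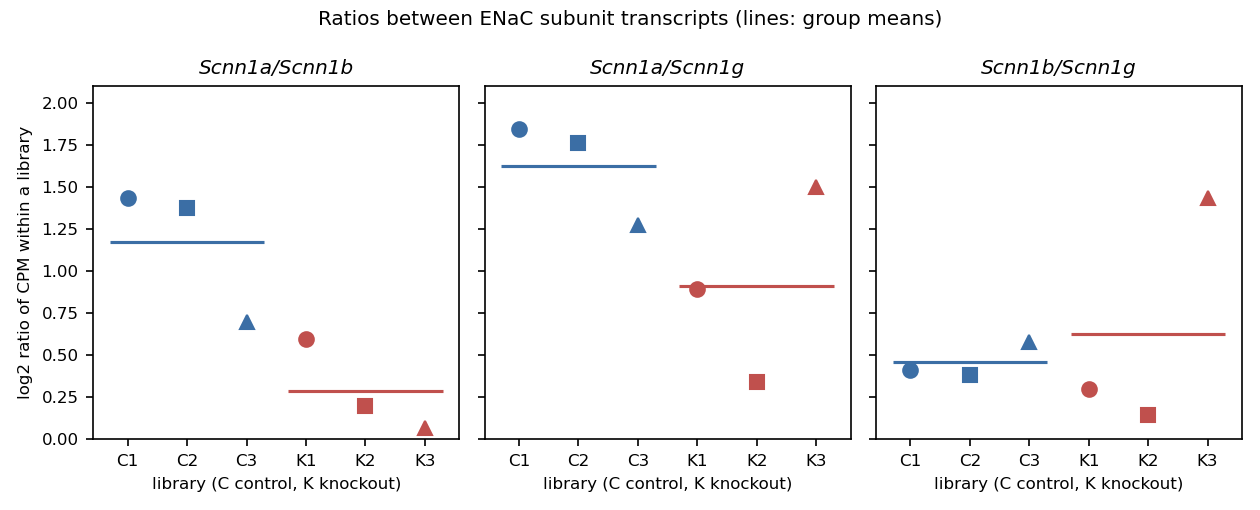
Ratios of CPM between pairs of channel subunits in each library, as log2 values, with controls (C) in blue, knockouts (K) in red and lines at the group means. The Scnn1a to Scnn1b points of the knockouts all sit below those of the controls, with group means of 0.29 and 1.17.

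The genes whose log2 CPM, centred over the 6 libraries, lay closest to each subunit were found among 11328 genes whose mean log2 CPM reached 3, by root mean square distance. For Scnn1a they were Atp5d (distance 0.089), Tsfm (0.090) and Phb (0.099). For Scnn1b they were Rpp25l (0.111), Enthd2 (0.112) and Pgls (0.120), and for Scnn1g Ccng1 (0.132), Ufsp1 (0.136) and Ptges (0.151), which is also in the list of principal cell markers used below. The 3 nearest genes of a subunit did not recur for another, and the 3 lists are descriptions over 6 libraries that differ in depth and composition.

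Nr3c2 (ENSMUSG00000031618, mm9 chr8:79423341-79768911, plus strand), the mineralocorticoid receptor, was at 22.5, 24.3 and 16.4 CPM in the controls and at 19.7, 15.1 and 18.3 CPM in the knockouts. The groups overlapped, with knockout 1 and knockout 3 inside the control range. The log2 fold change was -0.25 (SE 0.21, 95% interval -0.74 to 0.23, adjusted p = 0.397), and 0.02 when scaled by library size alone. Its annotated locus overlaps 3 other genes, 2 of them on the opposite strand, so its counts carry the same uncertainty as those of Scnn1b. Hsd11b2 (ENSMUSG00000031891, mm9 chr8:108042646-108047884, plus strand), which gives the receptor its selectivity for aldosterone, was at 285, 259.9 and 383 CPM in the controls and at 325, 162 and 219 CPM in the knockouts. Knockout 1 again fell inside the control range, and knockouts 2 and 3 were below every control. Hsd11b2 had a log2 fold change of -0.39 (SE 0.29, 95% interval -1.09 to 0.30, adjusted p = 0.353). It was -0.71 without knockout 1 (edgeR adjusted p = 0.0616).

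Sgk1 (ENSMUSG00000019970, mm9 chr10:21601990-21719709, plus strand) is an early aldosterone-induced kinase. Its CPM was 345, 191 and 187 in the controls, in order of replicate, against 195, 185 and 168 in the knockouts. Control 1 stood above the other 5 libraries, which spanned 168 to 195 CPM, and the groups overlapped. The log2 fold change of -0.40 (SE 0.27, 95% interval -1.03 to 0.23, adjusted p = 0.304) was -0.07 without control 1.

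The promoter sequences below are given for the kinase, the vasopressin receptor and Elf5, because they hold the hormone-related motifs searched for and because Elf5 had the largest difference among the members. Each is the 250 bases before an annotated RefSeq start (GRCm38.p6 table), located once in mm9 and written 5′ to 3′ on the strand of the gene, with capitals marking each match of AGAACA, the hexamer that steroid receptors such as the mineralocorticoid receptor bind, or of TGACG, the core of the cAMP response element, on either strand. Of the 10 members, 6 had an entry (Elf5, Scnn1g, Scnn1b, Nr3c2, Sgk1 and Avpr2), with 12 windows. AGAACA or TGTTCT was in 4 of the 12 and in 16.1% of 32851 windows of all genes, and TGACG or CGTCA was in 2 of the 12 and in 17.8% of all. Sgk1 alone has 6 of the 12 windows, with 3 of the 4 that hold the hexamer and 1 of the 2 that hold TGACG, and the one shown is that with the most hexamers. The inverted repeat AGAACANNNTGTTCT, which contains 2 of the hexamers, was in 3 of the 32851 windows (0.00913%), of which 1 is the Sgk1 window shown.

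Sgk1, mm9 chr10:21713446-21713695, plus strand, with hexamers starting 242, 189 and 180 bases before the start: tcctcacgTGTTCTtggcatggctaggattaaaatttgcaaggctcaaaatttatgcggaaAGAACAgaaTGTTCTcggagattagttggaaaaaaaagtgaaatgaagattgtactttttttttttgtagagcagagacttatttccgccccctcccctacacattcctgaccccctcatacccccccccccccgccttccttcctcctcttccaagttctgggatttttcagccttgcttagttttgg
Avpr2, mm9 chrX:71137191-71137440, plus strand, with hexamers starting 59 and 50 bases before the start: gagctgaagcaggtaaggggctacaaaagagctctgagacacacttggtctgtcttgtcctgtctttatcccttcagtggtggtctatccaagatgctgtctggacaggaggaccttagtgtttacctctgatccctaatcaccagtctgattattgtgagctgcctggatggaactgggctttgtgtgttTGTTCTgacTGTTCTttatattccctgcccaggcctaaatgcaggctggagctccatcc
Elf5, mm9 chr2:103263975-103264224, plus strand, before its second start, with CGTCA starting 56 bases before the start: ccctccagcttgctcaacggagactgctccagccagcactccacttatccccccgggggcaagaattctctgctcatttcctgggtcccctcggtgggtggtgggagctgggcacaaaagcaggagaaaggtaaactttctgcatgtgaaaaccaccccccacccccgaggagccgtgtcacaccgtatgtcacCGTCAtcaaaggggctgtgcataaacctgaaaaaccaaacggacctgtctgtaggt

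The Scnn1b and Scnn1g windows held neither motif, which says only that these letters are absent from the 250 bases searched. A match describes the sequence and was not measured as a bound site. Elf5 has 2 windows in the table, and counts were made per gene, so the data do not tell which start was used.

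Avpr2 (ENSMUSG00000031390, mm9 chrX:71137441-71140841, plus strand) was at 55.1, 47.0 and 44.3 CPM in the controls and at 49.9, 30.4 and 21.7 CPM in the knockouts. Knockouts 2 and 3 were below every control, and knockout 1 lay inside the control range. The mean was 34.0 ± 14.5 CPM in knockouts against 48.8 ± 5.64 CPM in controls (SD, n = 3 each), and the fitted level was 69.8% of that in controls. The log2 fold change was -0.52 (SE 0.30, 95% interval -1.22 to 0.18, adjusted p = 0.236), and -0.91 without knockout 1 with an edgeR adjusted p of 0.0175. The annotated locus overlaps Arhgap4 and L1cam on the opposite strand, so its counts carry the same uncertainty as those of Scnn1b.

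Elf5 (ENSMUSG00000027186, mm9 chr2:103251845-103291146, plus strand), a transcription factor of the ETS family expressed in principal cells, had the most negative fitted value of the 10. It was at 17.9, 13.5 and 14.6 CPM in controls 1 to 3 and at 8.93, 3.91 and 2.53 CPM in knockouts 1 to 3. Every knockout lay below every control, knockout 1 included. The counts behind these values were 360, 230 and 244 in the controls and 182, 78 and 33 in the knockouts. Control kidneys averaged 15.4 ± 2.28 CPM and knockout kidneys 5.12 ± 3.37 CPM (SD, n = 3 each). The fitted level in knockouts was 33.6% of that in controls, a log2 fold change of -1.57 (SE 0.46, 95% interval -2.66 to -0.49). The edgeR p was 0.011 and the edgeR adjusted p 0.0561, just short of the threshold. The adjusted p was 0.0045 by DESeq2 Wald test and 0.0439 by limma-voom, and 0.0042 by edgeR without knockout 1. Across the fits that each left out 1 library the log2 fold change ran from -2.25 to -1.26, always negative, with edgeR adjusted p from 0.0042 to 0.145. Without control 2 it was -1.67 (edgeR adjusted p = 0.134).

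Nedd4l (ENSMUSG00000024589, mm9 chr18:65047410-65377480, plus strand), the ubiquitin ligase that marks ENaC for removal, was at 144, 124 and 131 CPM in the controls and at 117, 86.0 and 109.8 CPM in the knockouts. All knockouts were below all controls, and the gap was smallest between knockout 1 and control 2. Its log2 fold change was -0.35 (SE 0.16, 95% interval -0.73 to 0.03, adjusted p = 0.157). It was -0.45 without knockout 1 (edgeR adjusted p = 0.0766).

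Slc14a2 (ENSMUSG00000024552, mm9 chr18:78342883-78405833, minus strand), the urea transporter of the inner medullary collecting duct and thin limb, was at 306, 173 and 187 CPM in the controls and at 203, 73.0 and 127 CPM in the knockouts. Control 1 was above the other 5 libraries, and knockout 1 lay inside the control range. Its log2 fold change was -0.73 (SE 0.40, 95% interval -1.67 to 0.22, adjusted p = 0.219). It was -1.16 without knockout 1 (edgeR adjusted p = 0.0454) and -0.44 without control 1. The thin limb markers, with 0 of 6 called by edgeR and 2 of 6 called lower without knockout 1, summed to 1487, 1451 and 921 CPM in the controls and 1269, 466 and 466 CPM in the knockouts. Their fitted values were positive in 4 of 6, with a median of 0.25 on the log2 scale, and the DESeq2 Wald test called 2 of them higher. Of these markers Aqp1 was also used in the study to label proximal tubules. The part of the thin limb list in the value of Slc14a2 was not tested. Several annotated transcripts of this gene are summed in a single count.

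**Figure D3:**
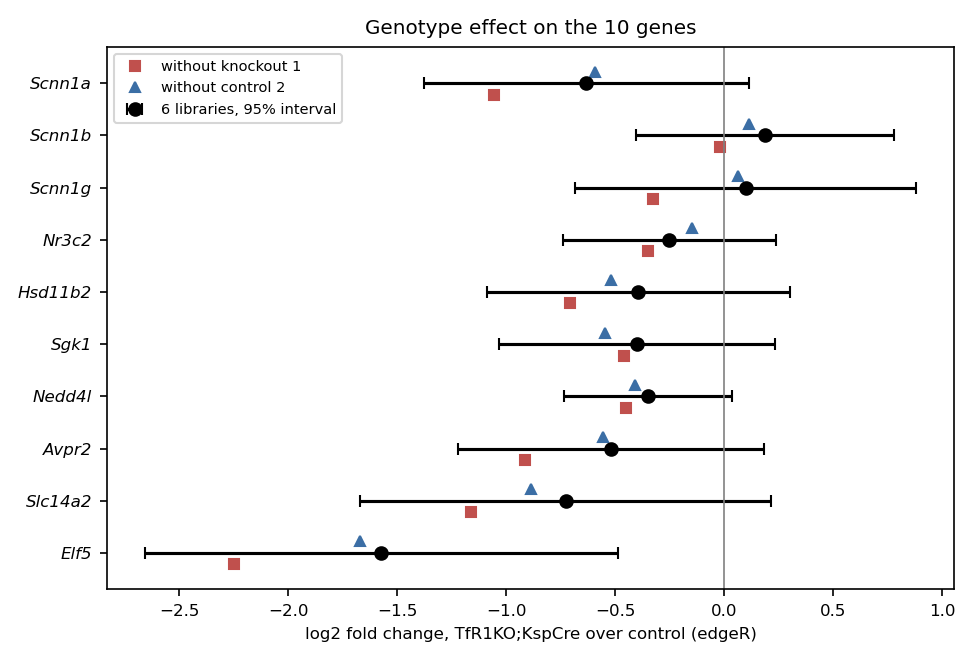
Log2 fold change of each member, knockout minus control, from the edgeR fit of all 6 libraries (black, with 95% intervals) and from the fits without knockout 1 (red squares) and without control 2 (blue triangles); the vertical line marks 0. In the fit of all 6 libraries only the interval of Elf5, -2.66 to -0.49, lies wholly below 0.

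Levels were compared between members per length of exon, as CPM per kb, in the controls. Hsd11b2 was highest at 167.8 ± 35.3 CPM per kb (SD, n = 3 here and below), followed by Scnn1a at 62.3 ± 6.03, Sgk1 at 57.1 ± 21.4, Slc14a2 at 47.3 ± 15.5, Scnn1b at 37.6 ± 7.38 and Scnn1g at 23.6 ± 2.92. Avpr2 was at 16.9 ± 1.95, Nedd4l at 14.4 ± 1.10, Elf5 at 5.65 ± 0.84 and Nr3c2 at 3.33 ± 0.65 CPM per kb. Neighbours whose control ranges overlapped were Scnn1a with Sgk1, Sgk1 with Slc14a2, Slc14a2 with Scnn1b, and Avpr2 with Nedd4l; the other neighbours did not overlap. In the knockouts Hsd11b2 stayed highest at 127.6 ± 44.9, Scnn1a at 40.1 ± 18.0 came after Sgk1 at 43.3 ± 3.22 and Scnn1b at 42.8 ± 12.1, and Elf5 at 1.88 ± 1.24 was lowest.

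Principal cells are where ENaC acts, and their 9 marker genes had mean log2 CPM of 6.89, 6.75 and 6.70 in the controls against 6.83, 6.17 and 5.40 in the knockouts, in order of replicate. Of these markers 1 was called higher (Gata3) and 1 lower (Aqp4), and their median log2 fold change was -0.31. Without knockout 1 the counts were 1 higher and 2 lower and the median -0.91. The markers were Aqp2, Aqp3, Aqp4, Fxyd4, Gata3, Kcnj1, Tspan1, Ptges and Kcne1. Kcnj1 is also in the thick ascending limb list and the calls went both ways, so their mean is not a level of principal cells alone. Each member was also expressed relative to the mean of the markers in its own library. Elf5 was lower by this measure in every knockout than in every control (difference -1.10), and Scnn1g was higher (0.63). Each had an exact permutation p of 0.1, the smallest possible, and an adjusted p of 0.5 over the 10 members. Scnn1b differed by 0.80 (exact permutation p = 0.2), and the other 7 members had exact permutation p values between 0.5 and 0.9. So 1 of the 10 lay lower without overlap, where 4.63% of all genes tested did, and 1 of the 10 higher, where 27.6% did.

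**Figure D4:**
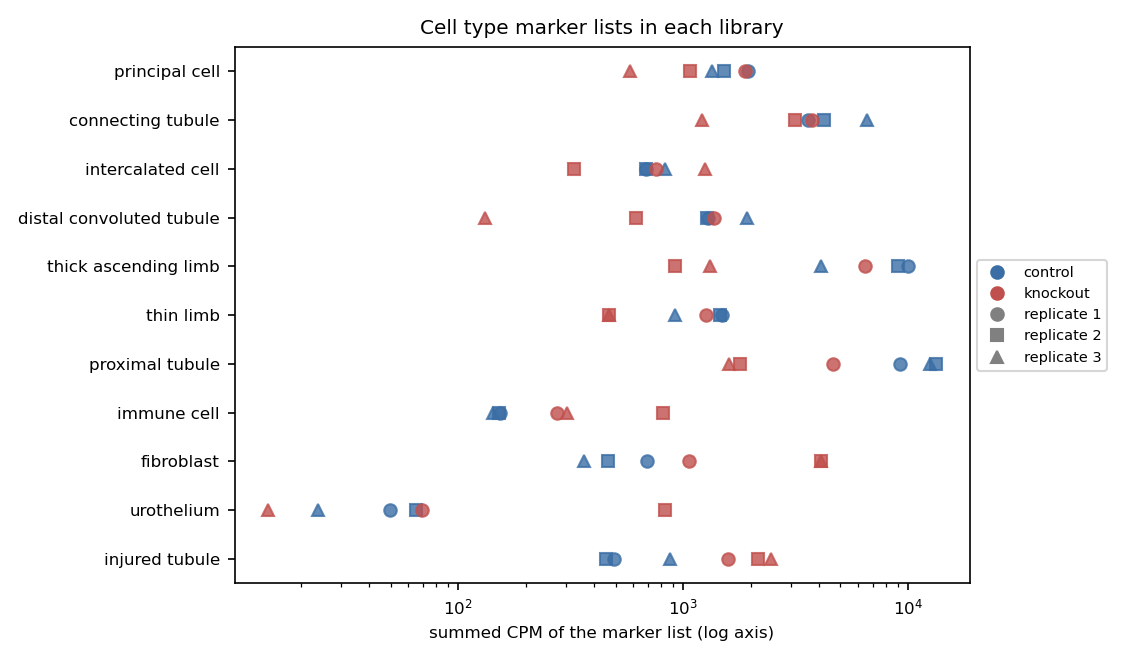
Summed CPM of each list of cell type markers in each library, on a log axis, with controls in blue, knockouts in red and the replicate number given by the marker shape. Knockout 1 sits near the controls for the principal cell list, at 1877 CPM, and knockouts 2 and 3 sit lower, at 1074 and 581 CPM.

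Lists of other nephron segments and cell types also differed between these libraries. The proximal tubule list summed to 9171 to 13318 CPM in the controls and 1599 to 4655 CPM in the knockouts, with 6 of its 8 tested genes called lower. The immune list summed to 143 to 153 CPM against 273 to 812 CPM, with 6 of 8 called higher, and the fibroblast list to 361 to 689 CPM against 1060 to 4100 CPM, with 4 of 8 called higher. Genes of injured tubule summed to 452 to 873 CPM against 1576 to 2452 CPM, with 7 of 8 called higher. The connecting tubule list, where ENaC also resides, had 0 of its 5 genes called by edgeR and summed to 3588, 4214 and 6529 CPM in the controls and 3751, 3126 and 1207 CPM in the knockouts. The intercalated cell list had 0 of 8 called and summed to 682 to 833 CPM against 326 to 1249 CPM. The thick ascending limb list, with 0 of 7 called, summed to 9939, 9027 and 4078 CPM in the controls and 6421, 922 and 1316 CPM in the knockouts. Without knockout 1, 7 of 8 proximal tubule, 5 of 7 thick ascending limb, 1 of 5 connecting tubule and 1 of 8 intercalated cell genes were called lower. In the same fit 7 of 8 immune, 7 of 8 fibroblast and 8 of 8 injured tubule genes were called higher. Without control 2, and likewise without control 1, control 3 or knockout 3, edgeR called 0 genes of any marker list, and without knockout 2 it called 3 immune and 2 injured tubule genes, all higher. The part of these shifts in the values of the members, and of the pathway genes given below, was not tested. Of the 7 adrenal cortex markers only Star passed the filter, and Cyp11b1 and Cyp11b2, the enzymes of corticosteroid and aldosterone synthesis, were at or near 0.

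Of 32 other genes of aldosterone signalling, channel processing and distal salt transport, all tested, 1 was called higher and 2 lower. Over all genes tested 10.6% were called higher and 6.64% lower. The list had a median log2 fold change of -0.25 and 21 negative values. Sgk2, a kinase related to Sgk1, was at 249.9, 235 and 270.0 CPM in the controls and 111, 38.4 and 32.9 CPM in the knockouts (log2 fold change -2.05, SE 0.47, adjusted p = 0.0362). Prss8, a channel-activating protease that cleaves the gamma subunit, was at 408, 448 and 444 CPM in the controls and 261, 124 and 149 CPM in the knockouts (-1.28, SE 0.30, adjusted p = 0.0364). Edn1, the precursor of endothelin, which inhibits sodium transport in the collecting duct, rose from 3.53, 2.53 and 5.10 CPM to 13.8, 29.7 and 28.9 CPM (2.70, SE 0.40, adjusted p = 0.0276). The groups of these 3 genes did not overlap. Of the 32 genes 10 lay lower without overlap, where 22.2% of all genes tested did, and 1 lay higher. Prss8 overlaps Myst1 on the opposite strand. Among genes named whatever their call, the potassium channel Kcnj1 had a log2 fold change of -0.83 (adjusted p = 0.162) and -1.36 without knockout 1 (edgeR adjusted p = 0.0107). Slc12a3, the cotransporter of the distal convoluted tubule, was at 1130.0, 1115 and 1686 CPM against 1250.4, 552 and 61.7 CPM, so that knockouts 2 and 3 were below every control and knockout 1 inside their range (-1.08, adjusted p = 0.397). The log2 value was -2.10 without knockout 1, -0.54 without knockout 3 and -2.02 by limma-voom, none of which passed the test. The distal convoluted tubule markers summed to 1374, 619 and 132 CPM in the knockouts. Slc12a3 itself supplied 1250.4, 552 and 61.7 CPM of those sums, so their order is not independent of it. Of these 5 markers 1 (Pvalb) was called lower, or 3 of the 5 without knockout 1. The aldosterone list had 12 genes called without knockout 1, 9 of them lower, where 34.4% of all genes were called in either direction. It had 9 called by the DESeq2 Wald test, where 32.2% of all genes were called, and 0 by edgeR when any of the other 5 libraries was left out.

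Of 29 other genes of vasopressin signalling and water and urea transport, 28 were tested, and Akr1b3 had 1 count in knockout 1 and was listed at 0 in the other 5 libraries. The median log2 fold change was -0.020. Of the 28, 4 were called higher, where 10.6% of all genes tested were, and 1 lower, where 6.64% were. The fall was in Aqp4, a basolateral water channel of principal cells, at 196, 294 and 131 CPM in the controls and 48.9, 21.5 and 7.81 CPM in the knockouts (-2.98, SE 0.66, adjusted p = 0.0339). The rises were in Ptger4, a prostaglandin receptor (1.91, adjusted p = 0.0271), the transcription factors Elf3 (1.69, adjusted p = 0.0323) and Gata3 (0.84, adjusted p = 0.0295), and Arrb2, an arrestin that binds phosphorylated receptors (1.48, adjusted p = 0.0278). Aqp2, the vasopressin-regulated apical water channel, was at 741, 405 and 463 CPM in the controls and 873, 516 and 56.1 CPM in the knockouts. Knockout 1 had the highest Aqp2 of the 6 libraries and knockout 3 the lowest, with a log2 fold change of -0.15 (SE 0.81, 95% interval -2.08 to 1.77, adjusted p = 0.904). Aqp3, its basolateral partner, showed the same order at 253, 123 and 39.8 CPM in knockouts 1 to 3 against 137 to 199.5 CPM in the controls (-0.31, adjusted p = 0.724). Slc14a1, a urea transporter also made in urothelium, was at 28.8, 20.9 and 19.2 CPM in the controls and 40.4, 74.2 and 4.98 CPM in the knockouts (log2 fold change 0.80, adjusted p = 0.476). In knockout 2, where it was highest, the urothelium markers summed to 826 CPM, against 14.2 to 69.1 CPM in the other libraries, and their part in its value was not tested. The tonicity factor Nfat5 had a log2 fold change of 0.24 (adjusted p = 0.348). The list had 11 genes called without knockout 1, 4 of them lower, where 34.4% of all genes were called in either direction. It had 11 by the DESeq2 Wald test, where 32.2% of all genes were called, and 0 by edgeR when any of the other 5 libraries was left out. Gata3, Elf3, Ptger4 and Akr1b3 overlap genes annotated on the opposite strand, with the uncertainty given above. The count of Akr1b3 is therefore not read as a lack of expression.

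**Figure D5:**
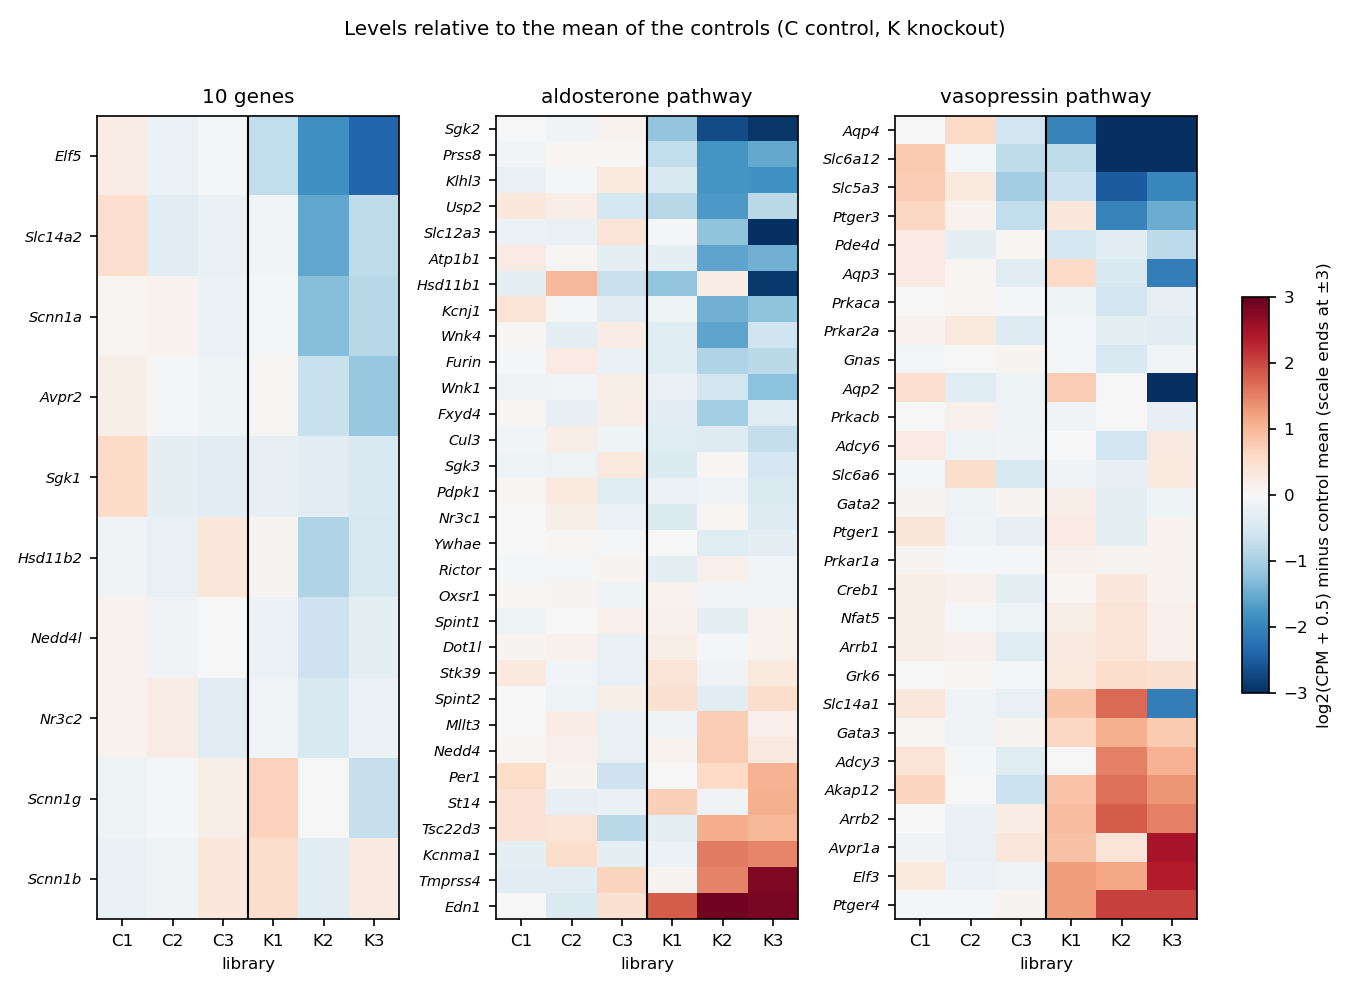
Levels of the 10 members and of genes of the aldosterone and vasopressin lists in each library (columns C1 to C3 and K1 to K3), as log2(CPM + 0.5) minus the mean of the controls, with blue below and red above that mean and rows ordered by log2 fold change. The column of knockout 1 is paler than those of knockouts 2 and 3 in most rows, and Aqp4 and Edn1, at -2.98 and 2.70, are at the ends of their lists.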

How the data were processed

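Per the labels and the submitters' processing notes, the authors prepared TruSeq RNA libraries, called bases with CASAVA 1.8.2, trimmed reads with Trimmomatic, aligned them to mm9 with TopHat2 2.0.11 and counted reads per gene with HTSeq. What was deposited is a table of raw read counts by gene for each group, without normalization. The gene annotation and strand setting are not given in the sources used here. Groups and replicate numbers came from the sample titles. The members and gene lists were chosen with earlier results of these data known.

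Counts of 24422 genes were filtered with filterByExpr (minimum count 10, minimum total 15), scaled by TMM and tested with edgeR 4.0.16 in R 4.3.3 (quasi-likelihood test, Benjamini-Hochberg adjustment over 15171 genes, threshold 0.05). SE was taken from the test statistic. Alternatives were other scalings and filters, DESeq2 1.42.0, limma-voom (limma 3.58.1), leaving out each library, a replicate block and an Xist-to-Y covariate. Ratios and levels relative to markers used log2 CPM with a prior count of 2 and exact two-sided permutation tests. Scripts were tested on simulated data. All members were named, with the genes called in each pathway list, a set of fixed genes (Aqp2, Aqp3, Kcnj1, Slc14a1, Prss8, Nfat5 and Slc12a3), the label checks Tfrc and Cdh16, and the 3 genes nearest each subunit. A further gene of the fixed set is not reported here. Cdh16, the gene whose promoter drives Cre, had a log2 fold change of -0.26 (adjusted p = 0.545). Positions are from GENCODE M1 on mm9.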

Additional observations from a re-analysis of the deposited data

How the results depend on the processing

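Over 27 named genes and the counts and ratios reported, 410 of 513 alternative values were kept and 18 changed sign. A further 8 gained a call, 56 lost a call and 21 moved. A gene's value was kept if its direction and side of the threshold held, and a ratio if its sign held. A count was kept if it equalled the main count or lay within a set factor of it, and otherwise moved. The number of members called was 1 under the DESeq2 Wald test and under limma-voom, and 0 to 4 over the fits without 1 library. For the aldosterone list the count was 9 under DESeq2, 0 to 12 without 1 library, and 0 under the replicate block and under the Xist-to-Y covariate. For the vasopressin list it was 11, 0 to 11, 0 and 0. All 8 called genes of these lists kept their direction but lost their call when any library but knockout 1 was left out. Over all genes edgeR called 2612, against 5332 without knockout 1, 73 without knockout 2, 2 without knockout 3 and 0 when any 1 control was left out. In those last fits 4270 to 4823 genes had an unadjusted p under 0.05. The changes of sign were in values that had not passed the test with all 6 libraries. Scnn1b ranged from -0.0196 to 0.39 and Scnn1g from -0.33 to 0.38 without 1 library, and Scnn1g was -0.0147 by limma-voom and -0.0026 with the replicate block. Scaling by library size alone, which moved the median of all genes from 0.021 to 0.29, gave 0.0183 for Nr3c2, 0.14 for Tfrc, 0.0069 for Cdh16 and 0.0662 for Aqp2. Tfrc was 0.15 with the Xist-to-Y covariate. Without 1 library Tfrc ranged from -0.96 to 0.29, Aqp2 from -0.91 to 0.37, Aqp3 from -1.08 to 0.13, Slc14a1 from -0.0065 to 1.32 and the log2 ratio of Scnn1b to Scnn1g from -0.24 to 0.41. The cause of these changes was not tested.

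The replicate numbers are not shown to pair the samples, since the deviations of same-numbered libraries correlated at -0.13, 0.012 and 0.21. With the replicate block edgeR called 0 genes and 0 members, with 5432 genes at an unadjusted p under 0.05. Elf5 had 33 to 360 counts per library.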
